A study of Mus musculus with 28 samples.

Results

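The insulin-like growth factor (IGF) family was described in sorted mammary stromal and luminal cells, as 10 genes: the ligands *Igf1* and *Igf2*, the receptors *Igf1r* and *Igf2r*, and the binding proteins *Igfbp2*, *Igfbp3*, *Igfbp4*, *Igfbp5*, *Igfbp6* and *Igfbp7*. The members were chosen by family name among the 50600 gene rows of the count table, at a time when results of these data were known. No cut-off on a measured value defined them, and *Igfbp1* was read with the other genes of the pathway. Which earlier values drew attention to the family is not recorded, so the levels below are descriptions and each test is that of a single gene within the fit of all genes. All 10 genes passed the filter on low counts in the stromal fit and in the fit of both lineages, and 8 of 10 passed it in the luminal fit, where *Igfbp2* and *Igfbp6* had too few reads.

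The libraries came from adult female C57BL/6 mice that all carried the PdgfrαCre driver and the R26mTmG reporter. Cells that expressed Cre, and their descendants, carry GFP (eGFP in the labels), whereas all other cells keep tdTomato, so GFP marks a history of *Pdgfra* promoter activity and not *Pdgfra* expression at the time of sorting. Lineage-negative cells of each mouse were sorted into GFP+ and tdTomato+ stroma (CD49f- EpCAM-) and GFP+ and tdTomato+ luminal cells (CD49f low, EpCAM+). In all, 4 mice were untreated and 3 received oestrogen and progesterone (E+P), and each of the 7 mice gave 4 libraries, which makes 28 libraries in 8 groups. The study's methods give adult age and a comparable oestrous stage for lineage tracing in this model, and describe slow-release hormone pellets for wild-type mice, without stating whether the sequenced mice received the same dose.

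Signalling by this family starts when IGF-I or IGF-II binds the type 1 receptor, a tyrosine kinase that acts through the PI3K-AKT and RAS-MAPK branches. The type 2 receptor binds IGF-II and carries it to lysosomes, and the IGFBPs hold the ligands in the extracellular space, where they can limit or prolong access to the receptor. In the mammary gland, stromal IGF-I is a known mediator of growth hormone and oestrogen during ductal growth, and IGFBP-5 is known for its rise during involution.

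Reads on genes ranged from 8623383 to 24583803 per library, so that 3 counts corresponded to 0.116 to 0.302 CPM (counts scaled to a common library size with TMM factors). Identity markers followed the sort: the summed luminal epithelial list was at 3930 to 7300 CPM in luminal libraries and 3.55 to 471 CPM in stroma. The fibroblast list summed to 31700 to 61100 CPM in GFP+ stroma, 1790 to 6520 CPM in tdTomato+ stroma and 7.33 to 110 CPM in luminal cells. The tdTomato+ stroma also held skeletal muscle fibre transcripts at 2400 to 22000 CPM and pericyte and smooth muscle transcripts at 6800 to 9780 CPM, against 7.65 to 16.4 and 139 to 314 CPM in GFP+ stroma. These are bulk libraries, in which fewer cells of a type and less RNA per cell cannot be told apart.

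Stroma and luminal cells differed in most of the family. Of the 8 members that also passed the luminal filter, 7 were higher in stroma and none was lower, beside 33.0% of all 19569 genes tested that were higher and 30.5% that were lower (63.5% in either direction; edgeR quasi-likelihood test, adjusted p under 0.01). *Igfbp2* and *Igfbp6* were called higher as well, but they passed the filter through their stromal reads alone, which fixed their direction, and they are not counted here. Of the 8, *Igfbp5* was not called. It averaged 1546 CPM over stromal and 2684 CPM over luminal libraries, with a fitted log2 difference of -0.15 ± 0.14 (SE; edgeR adjusted p = 0.33).

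The ligands were stromal transcripts, each concentrated in a different stromal subset. *Igf1*, the main growth-promoting ligand after birth, stood at 257, 238, 232 and 178 CPM in the 4 untreated GFP+ stromal libraries and at 41.1, 24.8, 37.4 and 20.7 CPM in the tdTomato+ stroma of the same mice. Every GFP+ value lay above every tdTomato+ value. In luminal cells *Igf1* had 0 to 11 counts per library and did not exceed 0.705 CPM. Over both treatments *Igf1* was higher in GFP+ than in tdTomato+ stroma by 2.60 ± 0.17 (SE) on the log2 scale, a 6.05-fold difference (edgeR adjusted p = 2.2e-09), with the same direction in 7 of 7 mice.

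*Igf2*, the fetal ligand, showed the opposite distribution. It stood at 63.1, 79.6, 51.0 and 37.8 CPM in the tdTomato+ stromal libraries of the untreated mice, whereas their GFP+ stroma held 4.995, 3.72, 5.91 and 1.28 CPM. The ranges were far apart, and none of the 7 mice had more *Igf2* in its GFP+ stroma. The log2 difference between GFP+ and tdTomato+ stroma was -4.10 ± 0.27, a 17.2-fold lower level in GFP+ stroma (edgeR adjusted p = 9.4e-09). Satellite cell markers, at 194 to 324 CPM in tdTomato+ stroma and at most 0.649 CPM in GFP+ stroma, moved with this difference, as did the muscle and pericyte lists above, and their part in it was not tested. In luminal cells *Igf2* was at most 2.96 CPM in all but 1 library, that of the tdTomato+ luminal cells of untreated mouse 4, which had 234 counts and 9.07 CPM.

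*Igf2* and *Igf2r* are imprinted in the mouse, and each has a transcript beside or across it. *H19*, the neighbour of *Igf2*, averaged 268 CPM in untreated tdTomato+ stroma and 92.9 CPM in untreated GFP+ stroma, a log2 difference over both treatments of -1.96 ± 0.55 that did not pass the threshold (edgeR adjusted p = 0.010). *Airn*, antisense to *Igf2r*, averaged 54.0 CPM in stroma and 19.8 CPM in luminal cells. The library kit keeps strand, but whether the counting used it is not given in the sources used here, and without strand the reads of *Igf2r* and *Airn* cannot be told apart where they overlap. The same limit holds for *Igf2* and its antisense *Igf2os*.

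**Figure D1:**
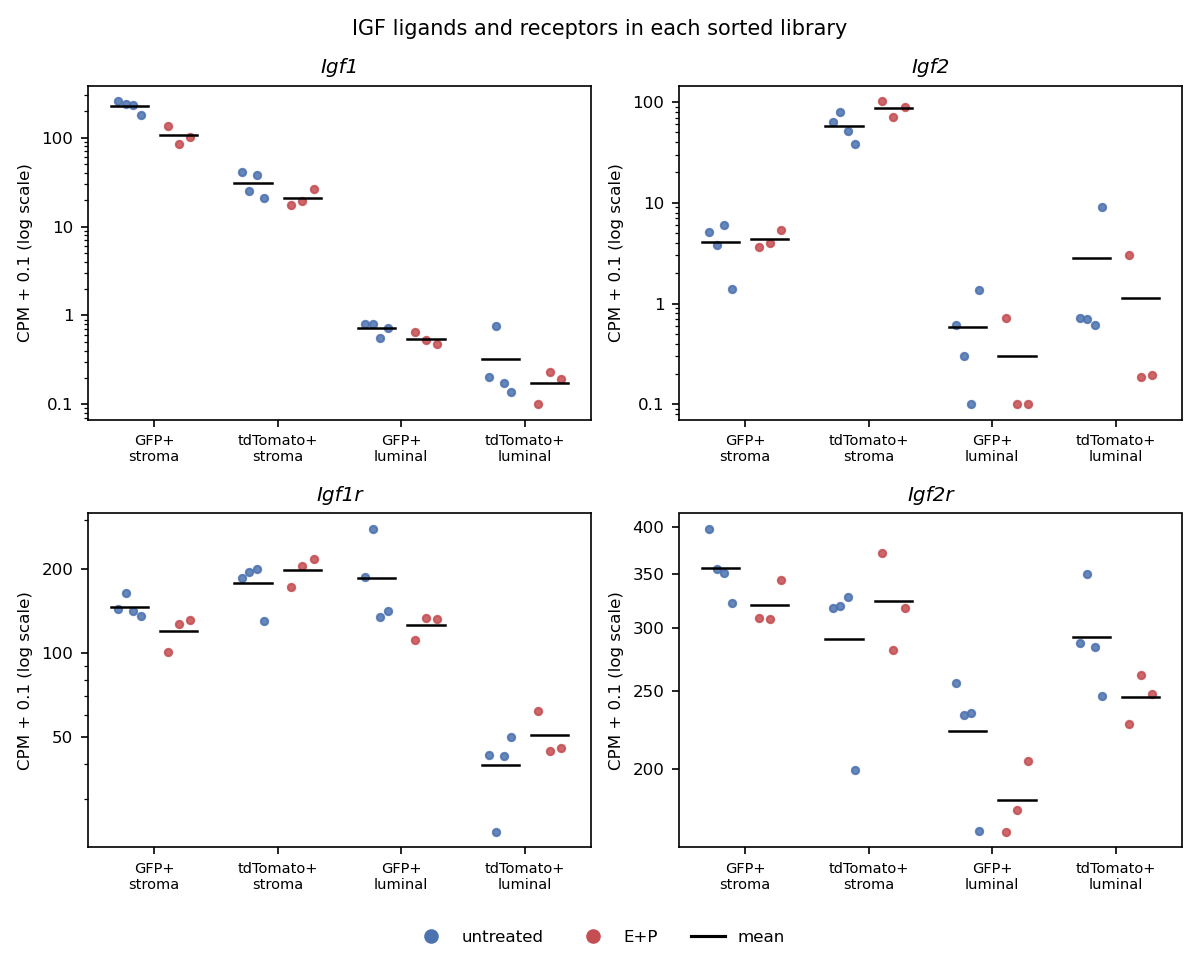
Levels of the IGF ligands and receptors in every library, in CPM plus 0.1 on a log axis, for GFP+ and tdTomato+ stroma and luminal cells (blue, 4 untreated mice; red, 3 E+P-treated mice; black bars, arithmetic means). *Igf1* is highest in GFP+ stroma and *Igf2* in tdTomato+ stroma, while both receptors are present in all 28 libraries and *Igf1r* is lowest in tdTomato+ luminal cells.

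Both receptors were transcribed in every library. *Igf1r*, the signalling receptor, ranged from 101 to 217 CPM in stroma. In luminal cells of untreated mice it stood at 188, 280, 135 and 142 CPM in the GFP+ subset and at 42.9, 22.8, 42.8 and 49.9 CPM in the tdTomato+ subset. The GFP+ luminal libraries thus lay in or above the stromal range, and all tdTomato+ luminal libraries lay below it. *Igf2r*, which clears IGF-II, varied least, with group means from 183 ± 19.3 CPM (SD, n = 3; GFP+ luminal cells after E+P) to 356 ± 31.7 CPM (SD, n = 4; untreated GFP+ stroma).

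On a scale per transcript length (RPKM), binding protein genes held the highest levels in stroma, and *Igfbp5* did in luminal cells. In untreated GFP+ stroma *Igfbp5* (389 ± 69.0 RPKM, SD, n = 4), *Igfbp6* (345 ± 85.6) and *Igfbp7* (329 ± 36.8) led, and the ranges of neighbours in that order overlapped. *Igfbp4* followed at 106 ± 14.3 RPKM and *Igfbp3* at 55.9 ± 15.9 RPKM, then *Igf2r* at 38.3 ± 3.41, *Igf1* at 22.8 ± 3.43, *Igf1r* at 8.73 ± 0.714 and *Igfbp2* at 4.52 ± 0.806 RPKM. In untreated tdTomato+ stroma *Igfbp5* (306 ± 39.5 RPKM) and *Igfbp7* (239 ± 44.8 RPKM) led with overlapping ranges, while *Igf2r* (31.2 ± 6.57 RPKM) lay beside *Igfbp6* (30.6 ± 21.9 RPKM) and above *Igfbp3* (16.6 ± 9.90 RPKM) on average, with overlapping ranges between neighbours. In untreated luminal cells *Igfbp5* alone was high, at 1122 ± 563 RPKM in GFP+ cells and 197 ± 58.0 RPKM in tdTomato+ cells, and the receptors came next, *Igf2r* at 23.9 ± 4.13 and 31.3 ± 4.58 RPKM and *Igf1r* at 11.1 ± 3.99 and 2.36 ± 0.698 RPKM. The next binding protein, *Igfbp7*, was at 6.61 ± 3.14 and 1.78 ± 1.45 RPKM.

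**Figure D2:**
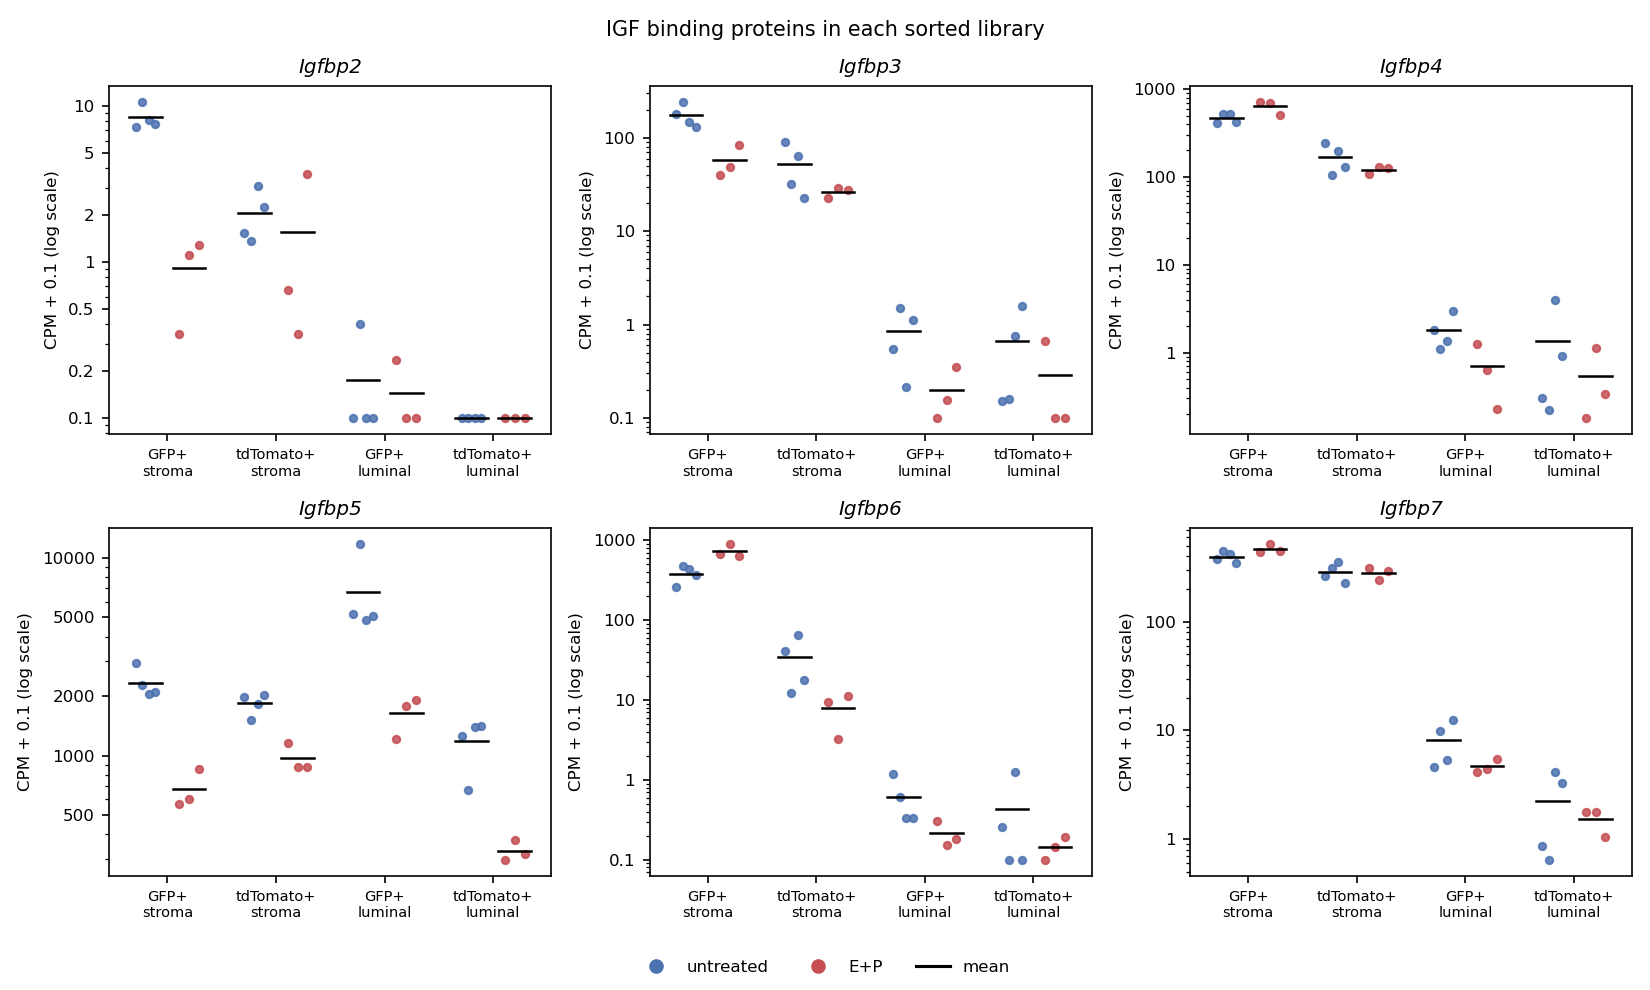
Levels of the 6 IGF binding protein genes in every library, in CPM plus 0.1 on a log axis, with groups and colours by lineage, subset and treatment (blue, untreated; red, E+P; black bars, arithmetic means). *Igfbp5* is high in all 8 groups and lower after E+P in each of them, whereas *Igfbp2*, *Igfbp3*, *Igfbp4*, *Igfbp6* and *Igfbp7* are stromal.

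Upstream sequences of 3 genes are shown because these genes carry the main contrasts, *Igfbp5* that with hormone, *Igf1r* and *Igfbp5* that between luminal subsets, and *Igfbp6* that between stromal subsets. Each run holds 200 bases before an annotated start and no annotated exon, 5′ to 3′ on the gene's strand (RefSeq promoter windows, GRCm38.p6), with matches to the motifs searched in capitals. The *Igf1r* and *Igfbp6* runs span bases 200 to 1 before the start. The *Igfbp5* run spans bases 219 to 20, since the bases nearer its start lie in an annotated exon.
Igfbp5, chr1:72874885-72875084, minus strand: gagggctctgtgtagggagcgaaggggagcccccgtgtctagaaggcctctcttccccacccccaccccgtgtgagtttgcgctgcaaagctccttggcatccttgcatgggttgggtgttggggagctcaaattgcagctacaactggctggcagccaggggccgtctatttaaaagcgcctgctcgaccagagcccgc
Igf1r, chr7:67952057-67952256, plus strand: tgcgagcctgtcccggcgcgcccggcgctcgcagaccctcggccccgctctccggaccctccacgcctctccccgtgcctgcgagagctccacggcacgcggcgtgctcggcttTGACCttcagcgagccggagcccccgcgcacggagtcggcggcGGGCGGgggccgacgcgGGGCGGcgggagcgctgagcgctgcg
Igfbp6, chr15:102143986-102144185, plus strand: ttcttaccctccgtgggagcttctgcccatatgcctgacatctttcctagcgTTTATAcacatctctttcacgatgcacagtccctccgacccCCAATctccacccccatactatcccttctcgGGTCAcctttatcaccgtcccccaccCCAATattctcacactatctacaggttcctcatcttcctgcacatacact

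The motifs were searched on both strands in the 250 bases before each start. They were the TATA box TATAAA, the CCAAT box CCAAT, the GC box GGGCGG, the core of the oestrogen response element GGTCA, the core of the progesterone and glucocorticoid response element AGAACA, and the STAT site TTCNNNGAA. All 10 members had a promoter window, with 14 windows in all. The *Igfbp5* window held none of the 6, and neither did that of *Igfbp3*. The *Igf1r* window held 2 GC boxes and 1 GGTCA, and the *Igfbp6* window held 2 CCAAT boxes, 1 GGTCA and 1 TATAAA on the opposite strand, 148 bases before the start. GGTCA occurred in 8 of the 14 windows and in 35.2% of all 32851 windows, GGGCGG in 6 and 32.7%, CCAAT in 3 and 33.8%, TATAAA in 2 and 12.4%, AGAACA in 2 and 16.1%, and TTCNNNGAA in none of the 14 and 7.02%. A match is a run of letters and not a binding site, and none of the matches overlap.

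*Igfbp5* lies on chromosome 1 (72857932 to 72874884, minus strand, GRCm38) next to *Igfbp2* (72824503 to 72852474, plus strand), the genes facing each other tail to tail. *Igf1* is on chromosome 10 (87858265 to 87937042, plus strand), *Igf1r* on chromosome 7 (67952827 to 68233668, plus strand) and *Igfbp6* on chromosome 15 (102144362 to 102149511, plus strand). The starts are those of GENCODE M21 and can differ from the RefSeq starts of the windows.

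GFP+ and tdTomato+ stroma differed in most binding proteins. Of the 10 members 7 were called, 5 higher and 2 lower in GFP+ stroma, beside 20.6% of 17783 genes called higher and 21.3% called lower (42.0% in all). The median log2 fold change was 0.61 over the members and -0.01 over all genes. Besides *Igf1* and *Igf2*, these were *Igfbp6*, *Igfbp4*, *Igfbp3* and *Igfbp7*, higher in GFP+ stroma, and *Igf1r*, lower by 0.52 ± 0.10 on the log2 scale (edgeR adjusted p = 0.00044).

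*Igfbp6*, a binding protein with preference for IGF-II, had the largest difference. It stood at 257, 475, 434 and 367 CPM in the GFP+ stroma of untreated mice, and their tdTomato+ stroma held 41.5, 12.2, 65.1 and 17.5 CPM, without overlap. The log2 difference over both treatments was 5.01 ± 0.45, or 32.1-fold (edgeR adjusted p = 1.8e-06), in 7 of 7 mice. *Igfbp4*, the substrate of the protease PAPP-A, was higher by 1.92 ± 0.17 (adjusted p = 6.0e-08), *Igfbp3*, the main carrier of circulating IGF-I, by 1.42 ± 0.30 (adjusted p = 0.0014) and *Igfbp7*, a more distant family member with weak IGF binding, by 0.58 ± 0.11 (adjusted p = 2.0e-04), each in 7 of 7 mice. The *Igfbp3* call was lost without E+P-treated mouse 3 (1.24, adjusted p = 0.012). *Igf2r*, *Igfbp2* and *Igfbp5* did not pass the test, with log2 differences of 0.12 ± 0.11, 0.64 ± 0.48 and -0.10 ± 0.12. The fibroblast, muscle and pericyte lists moved with the subset as given above, and their part in these differences was not tested.

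GFP+ and tdTomato+ luminal cells differed in the receptors, *Igfbp5* and *Igfbp7*. Of the 8 members tested, 3 were higher and 1 was lower in GFP+ luminal cells, beside 15.7% of 16538 genes called higher and 19% called lower (34.7% in all), with a median log2 fold change of 1.06 over the members and 0.00 over all genes. *Igfbp5* stood at 5180, 11810, 4869 and 5099 CPM in the GFP+ luminal cells of the untreated mice and at 1257, 669, 1392 and 1409 CPM in their tdTomato+ luminal cells. After E+P the values were 1218, 1772 and 1914 CPM against 297, 375 and 316 CPM. Within each treatment every GFP+ library lay above every tdTomato+ library, and untreated mouse 2 had both the highest GFP+ and the lowest untreated tdTomato+ value. The log2 difference was 2.39 ± 0.25, or 5.23-fold (edgeR adjusted p = 1.1e-05), and it was between 2.08 and 2.49 when any 1 mouse was left out.

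*Igf1r* was higher in GFP+ luminal cells by 1.75 ± 0.20 on the log2 scale, or 3.36-fold (edgeR adjusted p = 2.2e-05), in 7 of 7 mice. *Igf2r* was lower by 0.43 ± 0.10 (adjusted p = 0.0029), in 7 of 7 mice, and *Igfbp7* was higher by 1.77 ± 0.42 (adjusted p = 0.0032) at a mean of 6.54 CPM against 1.84 CPM. Leaving out any 1 of the 3 E+P-treated mice ended both of these calls (adjusted p from 0.012 to 0.030 for *Igf2r* and from 0.011 to 0.025 for *Igfbp7*). *Igfbp7* averaged 4.19 CPM in luminal cells and 357 CPM in stroma. Its highest GFP+ luminal value, 12.4 CPM in untreated mouse 4, came with 33.8 CPM of muscle fibre and 35.8 CPM of fibroblast transcripts. The next highest, 9.86 CPM in untreated mouse 2, came with 1.91 CPM of muscle fibre and 73.4 CPM of fibroblast transcripts. The part of these lists in luminal *Igfbp7* was not tested. *Igf1*, at a mean of 0.548 CPM against 0.158 CPM, had a log2 difference of 1.89 ± 0.61 in 7 of 7 mice that edgeR did not call (adjusted p = 0.019), while limma-voom (adjusted p = 0.004) and DESeq2 (adjusted p = 0.0093) did. It passed the low-count filter mainly through untreated GFP+ libraries, with 7 to 11 counts, against 1 to 11 in untreated tdTomato+ libraries. The filter thus favoured a higher GFP+ level, and no weight is put on the direction of *Igf1* here. *Igf2* had a log2 difference of -2.48 ± 1.21 (edgeR adjusted p = 0.11), and with the mouse as a block, which pairs the subsets of each animal, -2.31 (edgeR adjusted p = 0.0087). Its counts were 7 to 234 in untreated tdTomato+ and 0 to 16 in untreated GFP+ luminal libraries, with the 234 in 1 library. The filter could favour a higher tdTomato+ level, and no weight is put on the direction of *Igf2* either.

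The hormone-sensing luminal list (*Esr1*, *Pgr*, *Prlr*, *Foxa1*, *Cited1* and *Areg*) summed to 170 to 1830 CPM in GFP+ and 2000 to 5240 CPM in tdTomato+ luminal cells, and the luminal progenitor list to 1010 to 2280 CPM and 95.1 to 663 CPM. Both lists moved with the subset difference in *Igfbp5* and *Igf1r*, and their part in it was not tested.

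The subset difference itself depended on lineage for *Igf1r*, *Igf2r* and *Igfbp5*. The interaction of subset and lineage was called for 3 of 10 members by edgeR, beside 33.2% of 19569 genes. DESeq2 called 5, adding *Igfbp6* (4.08, adjusted p = 0.00016) and *Igfbp7* (-1.23, adjusted p = 0.0069), for which edgeR gave adjusted p = 0.083 and 0.019. *Igfbp2* and *Igfbp6* entered this fit through stromal reads alone, with at most 3 and 17 counts in a luminal library. No weight is put on their interaction. All genes called ran from 4985 to 8570 over the settings tried (6502 in the main fit), and the share by DESeq2 is not given. For *Igf1r* the difference between GFP+ and tdTomato+ cells was lower in stroma than in luminal cells by 2.28 ± 0.23 on the log2 scale (edgeR adjusted p = 1.3e-08), since GFP+ stroma had less *Igf1r* than tdTomato+ stroma in 6 of 7 mice and GFP+ luminal cells had more in 7 of 7. For *Igfbp5* it was lower in stroma by 2.5 ± 0.28 (adjusted p = 7.7e-08), with within-mouse log2 differences from -1.01 to 0.59 in stroma and from 1.81 to 4.14 in luminal cells. *Igf2r* went the other way, by 0.55 ± 0.16 (adjusted p = 0.0057), a call that was lost without untreated mouse 2 or without any 1 of the 3 E+P-treated mice (adjusted p from 0.011 to 0.050).

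**Figure D3:**
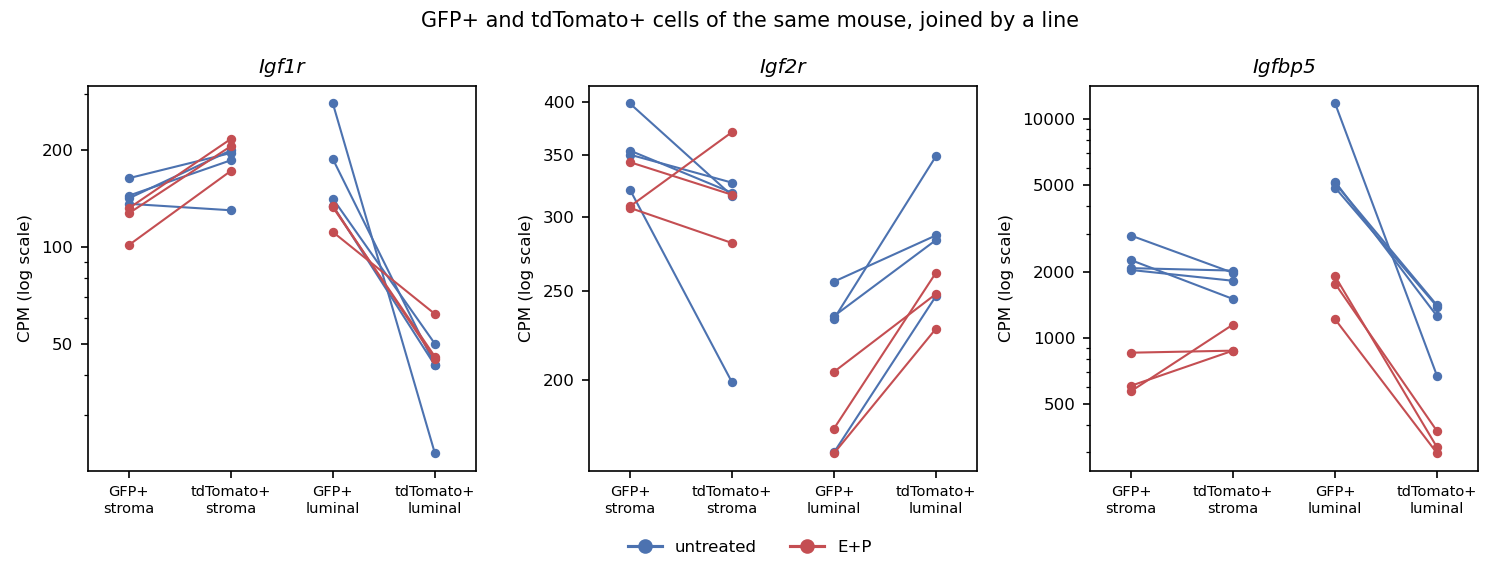
*Igf1r*, *Igf2r* and *Igfbp5* in CPM on a log axis, with a line joining the GFP+ and tdTomato+ cells of 1 mouse within stroma (left pair) and within luminal cells (right pair; blue, 4 untreated mice; red, 3 E+P-treated mice). All 7 lines for *Igf1r* and *Igfbp5* fall from GFP+ to tdTomato+ luminal cells, all 7 rise for *Igf2r*, and in stroma the line falls in 1 of 7 mice for *Igf1r*, 6 of 7 for *Igf2r* and 4 of 7 for *Igfbp5*.

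*Igfbp5* was lower after E+P. In GFP+ stroma the untreated mice had 2940, 2271, 2047 and 2087 CPM and the E+P-treated mice 572, 605 and 857 CPM. In tdTomato+ stroma the values were 1986, 1508, 1827 and 2034 CPM against 1153, 876 and 876 CPM. With the luminal values above, *Igfbp5* was lower in the E+P-treated than in the untreated mouse in 12 of 12 pairs of mice in each of the 4 kinds of cell, and the ranges did not overlap in any of them. The 4 kinds of cell came from the same 7 mice and are not independent of each other.

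The log2 fold change of *Igfbp5* with E+P was -1.77 ± 0.19 in GFP+ stroma (3.42-fold lower; edgeR adjusted p = 7.6e-05), -0.92 ± 0.18 in tdTomato+ stroma (1.90-fold lower; adjusted p = 0.024, not called), -2.05 ± 0.36 in GFP+ luminal cells (4.14-fold lower; adjusted p = 0.0031) and -1.82 ± 0.35 in tdTomato+ luminal cells (3.52-fold lower; adjusted p = 0.0027). In GFP+ stroma the call held when any 1 mouse was left out (adjusted p from 0.00024 to 0.0038). In luminal cells it was lost without any 1 of the 3 E+P-treated mice (adjusted p from 0.018 to 0.027 in GFP+ and from 0.016 to 0.021 in tdTomato+ cells) and without the filter on low counts (0.011 and 0.010), at log2 fold changes between -2.15 and -1.77. In GFP+ luminal cells it was also lost when those 2 groups were fitted alone (adjusted p = 0.014). Untreated mouse 2, with 11810 CPM, did not carry the luminal difference, which was -1.63 (adjusted p = 3.0e-04) in GFP+ and -2.01 (adjusted p = 9.9e-06) in tdTomato+ luminal cells without it.

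**Figure D4:**
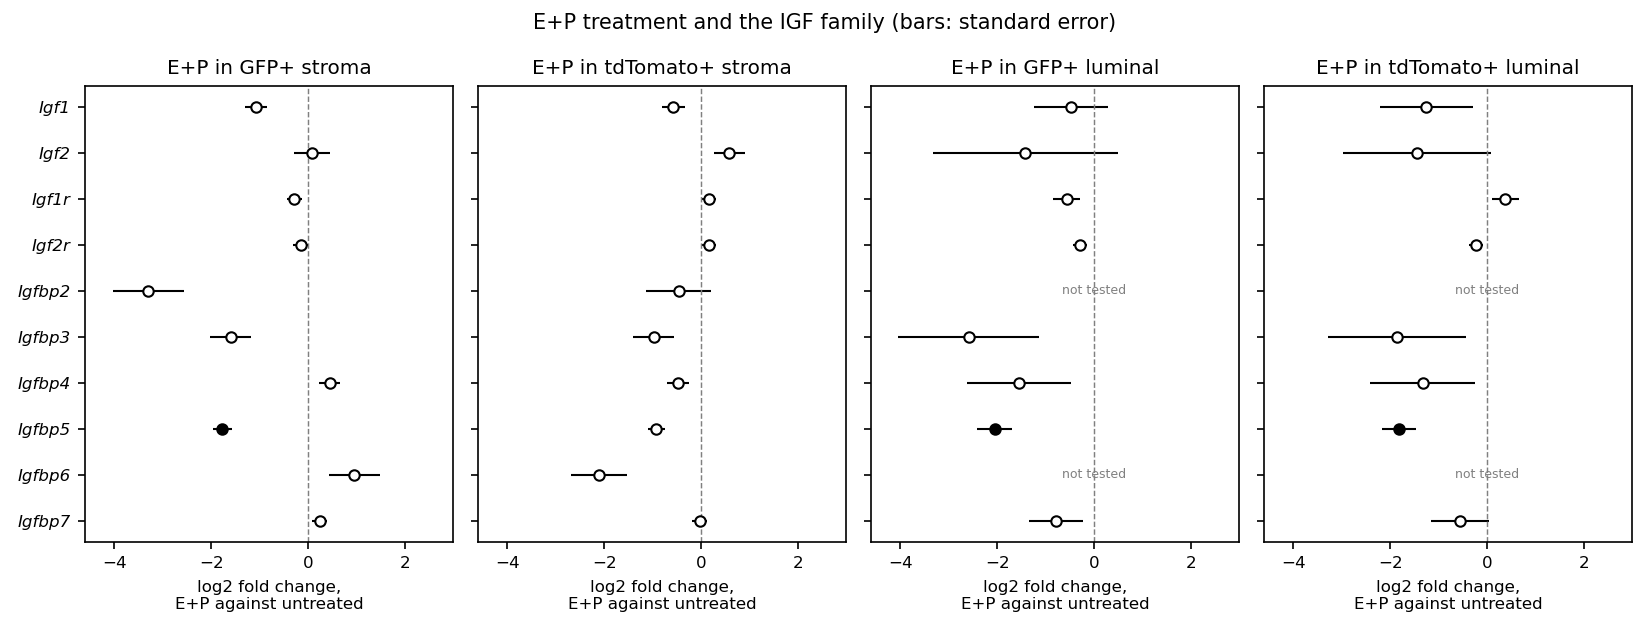
Log2 fold change of each member with E+P against untreated mice in the 4 kinds of cell (x axis; points, edgeR estimates; bars, standard error; filled points, adjusted p under 0.01; 3 against 4 mice). *Igfbp5* lies at -1.77 in GFP+ stroma, -0.92 in tdTomato+ stroma, -2.05 in GFP+ and -1.82 in tdTomato+ luminal cells, and is the only filled point in 3 of the panels.

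With edgeR, no other member was called with E+P. In GFP+ stroma 1 of 10 members was called, beside 0.231% of 17783 genes, against 2 by limma-voom (*Igf1* and *Igfbp5*) and 4 by DESeq2 (these with *Igfbp2* and *Igfbp3*). In tdTomato+ stroma 0 of 10 by edgeR, beside 0.124%, with 4 of 10 at an unadjusted p under 0.05, 0 by limma-voom and 2 by DESeq2 (*Igfbp5* and *Igfbp6*). Over the settings listed in the last section, all genes called ran from 16 to 459 in GFP+ stroma (41 in the main fit). In tdTomato+ stroma they ran from 0 to 840 (22 in the main fit). Shares of all genes by limma-voom, by DESeq2 and at an unadjusted p are not given, so these member counts are not read as a result about the family. In GFP+ and in tdTomato+ luminal cells 1 of 8 members was called, beside 5.96% and 14.1% of 16538 genes. The median log2 fold change over the members was -0.22 in GFP+ stroma, -0.46 in tdTomato+ stroma, -1.10 in GFP+ and -1.29 in tdTomato+ luminal cells, beside 0.00, -0.03, -0.03 and -0.05 over all genes. In luminal cells *Igf1*, *Igf2*, *Igfbp3* and *Igfbp4*, which had few reads there, are 4 of the 8 values behind each median. Of these, *Igf1*, *Igfbp3* and *Igfbp4* passed the low-count filter mainly through untreated libraries. *Igfbp3*, for example, had 2 to 14 counts in untreated and 0 to 6 in E+P-treated GFP+ luminal libraries, and 1 to 38 and 0 to 7 in tdTomato+ ones. The filter thus favoured a lower level after E+P, and no weight is put on the luminal medians.

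In GFP+ stroma further members moved without overlap but missed the threshold. The untreated and E+P-treated mice did not overlap for 6 of 10 members, *Igf1*, *Igf1r*, *Igfbp2*, *Igfbp3* and *Igfbp5* (lower) and *Igfbp6* (higher), beside 13.0% of all genes tested. *Igf1* stood at 135, 84.9 and 102 CPM after E+P against 178 to 257 CPM in untreated mice, a log2 fold change of -1.07 ± 0.23 (edgeR adjusted p = 0.043). It was past the threshold by limma-voom (-1.10, adjusted p = 0.0046) and by DESeq2 (-1.08, adjusted p = 0.0015). *Igfbp2*, a binding protein of low level here, stood at 7.27, 10.5, 7.98 and 7.61 CPM in untreated mice and at 0.244, 1.00 and 1.18 CPM, or 3, 19 and 24 counts, after E+P (-3.30 ± 0.73, edgeR adjusted p = 0.046; limma-voom 0.016; DESeq2 0.00023).

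*Igfbp3* stood at 180, 243, 146 and 131 CPM in untreated GFP+ stroma and at 40.0, 48.6 and 82.7 CPM after E+P (-1.60 ± 0.43, edgeR adjusted p = 0.16; limma-voom 0.017; DESeq2 0.0016). *Igfbp6* had 683, 910 and 634 CPM after E+P, all above the untreated range of 257 to 475 CPM (0.96 ± 0.52, edgeR adjusted p = 0.72). In tdTomato+ stroma 2 of 10 members did not overlap, *Igfbp5* and *Igfbp6*, beside 10.7% of genes. There *Igfbp6* was lower, at 9.44, 3.16 and 11.2 CPM after E+P against 12.2 to 65.1 CPM in untreated mice (-2.10 ± 0.58, edgeR adjusted p = 0.11, limma-voom 0.11, DESeq2 0.0044). In GFP+ luminal cells *Igf1r* and *Igfbp5* of the 8 tested members did not overlap, beside 27.6% of genes, and in tdTomato+ luminal cells *Igfbp5* alone, beside 35.9%.

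The difference in the E+P change between subsets was called for no member by edgeR. In stroma 0 of 10 members were called, beside 0.0450% of genes, with 4 at an unadjusted p under 0.05, 0 by limma-voom and 1 by DESeq2. That one was *Igfbp6*, whose change differed by 3.07 ± 0.77 on the log2 scale between GFP+ and tdTomato+ stroma (edgeR adjusted p = 0.18; limma-voom 0.099; DESeq2 0.0062). The *Igfbp5* change differed by -0.85 ± 0.25 (edgeR adjusted p = 0.21). In luminal cells 0 of 8 were called, beside 2.27% of genes, with 1 at an unadjusted p under 0.05 and 0 by limma-voom and by DESeq2. All genes called for this interaction ran from 1 to 506 in stroma over the settings tried (8 in the main fit). Member counts by the other tools and at an unadjusted p have no share of all genes beside them.

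The composition of binding protein transcripts differed by treatment in stroma. As a share of the summed RPKM of the 6 genes, *Igfbp5* made up 31.9% ± 6.51 (SD, n = 4) in untreated and 8.64% ± 2.68 (SD, n = 3) in E+P-treated GFP+ stroma, and *Igfbp6* 27.9% ± 5.67 and 49.9% ± 3.55, with no overlap between treatments for either. The summed level differed less, at 1105 to 1376 RPKM in untreated and 1222 to 1524 RPKM in E+P-treated mice. In tdTomato+ stroma *Igfbp5* made up 48.8% ± 7.02 and 36.7% ± 3.07 and *Igfbp7* 38.0% ± 6.83 and 53.2% ± 2.08, and the sum was 632 ± 77.1 and 438 ± 52.1 RPKM. In luminal cells *Igfbp5* held 97.5% to 99.2% of the sum on average in all 4 groups, and the sum went with it, from 1130 ± 564 to 276 ± 61.5 RPKM in GFP+ and from 199 ± 59.7 to 56.2 ± 6.90 RPKM in tdTomato+ cells. These shares are parts of a whole and were not tested.

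**Figure D5:**
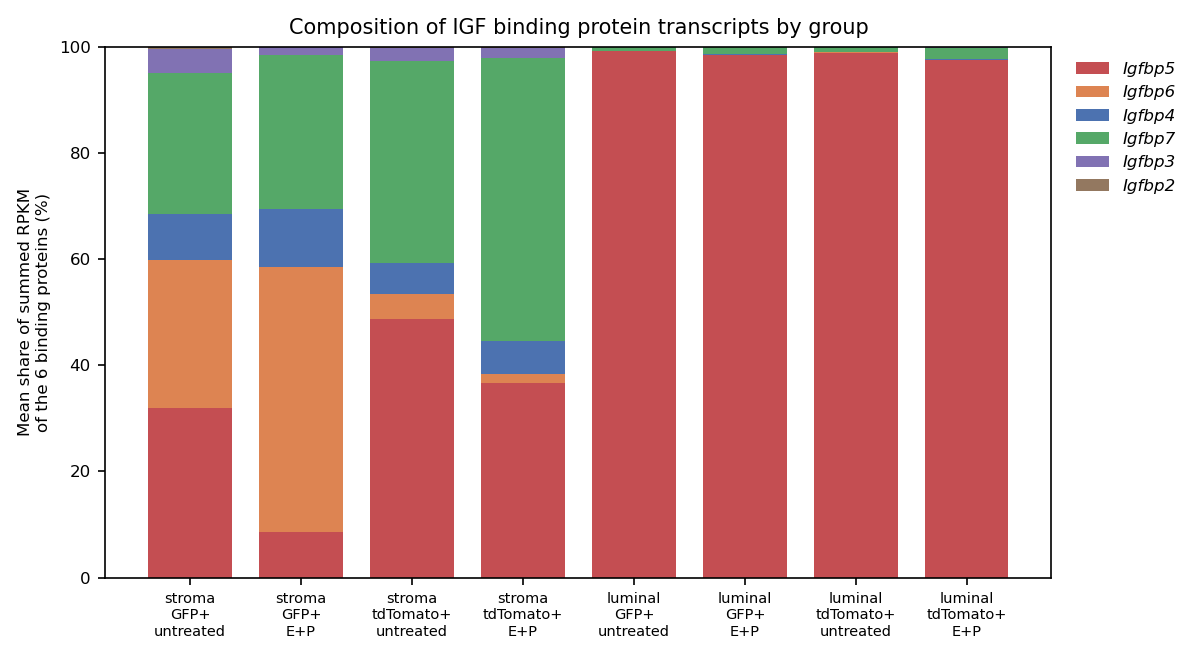
Mean share of each binding protein gene in the summed RPKM of the 6 genes (y axis, %), by group (4 untreated or 3 E+P-treated mice a bar). The *Igfbp5* share is 31.9% in untreated and 8.64% in E+P-treated GFP+ stroma, and at least 97.5% in each luminal group.

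Marker lists also differed with E+P, and those whose ranges did not overlap are given here, untreated first. In GFP+ luminal cells these were the progenitor list (1410 to 2280 and 1010 to 1190 CPM), the basal list (41.6 to 85.5 and 117 to 132 CPM), the fibroblast list (35.8 to 110 and 22.1 to 24.9 CPM), the pericyte list (174 to 240 and 155 to 162 CPM) and the immune list (5.83 to 7.39 and 4.2 to 5.11 CPM). In tdTomato+ luminal cells they were the hormone-sensing list (3640 to 5240 and 2000 to 3220 CPM), the progenitor list (170 to 663 and 95.1 to 161 CPM), the basal list (7.60 to 18.3 and 35.4 to 62.5 CPM) and the Schwann cell list (109 to 129 and 42.0 to 61.5 CPM). In tdTomato+ stroma they were the fibroblast list (2340 to 6520 and 1790 to 2300 CPM), the hormone-sensing list (69.6 to 438 and 39.3 to 54.1 CPM) and the basal list (4.24 to 17.1 and 19.3 to 35.5 CPM). In GFP+ stroma the fibroblast list overlapped (31700 to 61100 and 49200 to 60300 CPM), while the endothelial list (188 to 271 and 137 to 156 CPM), the luminal list (18.6 to 84.7 and 4.38 to 5.28 CPM), the progenitor list (37.6 to 67.1 and 12.1 to 27.4 CPM), the Schwann cell list (12.9 to 20.7 and 9.17 to 10.2 CPM) and the basal list (4.04 to 8.21 and 1.95 to 3.00 CPM) did not. The Schwann cell list was higher in luminal libraries (42.0 to 314 CPM) than in stroma (3.66 to 21.6 CPM). In GFP+ luminal cells the pericyte list (155 to 240 CPM) lay within its GFP+ stromal range (139 to 314 CPM). In luminal cells these 2 lists are therefore not read as Schwann cell or pericyte content. The part of any list in the changes of *Igfbp5* and *Igfbp6* was not tested.

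The other genes of the pathway were read as 47 genes in lists. Between GFP+ and tdTomato+ stroma, 11 of the 42 tested were higher and 13 lower, beside 20.6% and 21.3% of all genes (42.0% in all). *Stc1*, an inhibitor of PAPP-A, was lower by 5.0 ± 0.26 on the log2 scale in GFP+ stroma (5.06 against 162 CPM), *Pappa*, the protease that cleaves IGFBP-4, was higher by 1.15 ± 0.25, and *Ghr*, the growth hormone receptor, by 0.96 ± 0.12 (edgeR adjusted p of 1.1e-09, 8.5e-04 and 2.7e-06). Of the adaptors, *Grb14* was lower by 3.58 ± 0.29 and *Irs2* by 0.96 ± 0.13, and *Grb10* was higher by 0.70 ± 0.09. Between GFP+ and tdTomato+ luminal cells, 9 of 40 were higher and 16 lower, beside 15.7% and 19% of all genes (34.7% in all), among them *Pik3r1*, a regulatory subunit of PI3K (1.96 ± 0.26), *Grb10* (1.91 ± 0.16) and *Stc2* (-3.12 ± 0.49). All 4 called genes of the 9 in the RAS and MAPK list were lower in GFP+ luminal cells, *Map2k1* (-1.07 ± 0.16) the most.

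Between stroma and luminal cells 18 of 44 pathway genes were higher and 13 lower, beside 33.0% and 30.5% of all genes (63.5% in all). *Pik3cb*, a catalytic subunit of PI3K, was lower in stroma by 4.50 ± 0.11 and *Stc2* by 4.38 ± 0.34, whereas *Pappa* was higher by 3.78 ± 0.32 and *Grb10* by 3.03 ± 0.10. The subset difference depended on lineage for 25 of 44, 13 in one direction and 12 in the other, beside 33.2% of all genes. With E+P, none of 42 pathway genes was called in either stromal subset by edgeR, with 1 and 5 at an unadjusted p under 0.05, 0 and 0 by limma-voom and 0 and 1 by DESeq2. In GFP+ luminal cells 3 of 40 were higher and 1 lower by edgeR, beside 5.96% of all genes, 3 and 0 by limma-voom and 3 and 1 by DESeq2. In tdTomato+ luminal cells 4 were higher and 1 lower by edgeR, beside 14.1% of all genes, 4 and 2 by limma-voom and 7 and 4 by DESeq2. The shares of all genes are those of edgeR, and none is given for limma-voom, DESeq2 or an unadjusted p. *Foxo1* (0.50 ± 0.11) and *Gsk3b* (0.45 ± 0.10) were among the higher genes in GFP+ luminal cells, and *Pik3cb* (0.72 ± 0.14) and *Hras* (0.91 ± 0.13) in tdTomato+ luminal cells. *Grb14* was the lower gene by edgeR in tdTomato+ luminal cells (5.64 against 19.3 CPM).

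Over the 28 libraries *Igf1* and 4 binding protein genes had similar patterns. Pearson's r of log2 CPM between *Igf1* and *Igfbp3*, *Igfbp4*, *Igfbp6* and *Igfbp7* was 0.95 to 0.96, and r between *Igfbp5* and the other 9 members was -0.17 to 0.56. *Igf2* correlated with the stromal binding protein genes *Igfbp2*, *Igfbp3*, *Igfbp4*, *Igfbp6* and *Igfbp7* by 0.51 to 0.73 and with *Igf1* by 0.60, *Igf1r* with *Igf1* and with *Igfbp5* by 0.56 each, and *Igf1r* with *Igf2r* by 0.05. Libraries of a group share their cell type and each mouse gave 4, so the 28 points are not independent. Among 11397 genes, those nearest to *Igfbp5* were *Bcl2* (r = 0.844), *Arhgef6* (0.840) and *Met* (0.834), and those nearest to *Igf1r* were *Cebpd* (0.914), *9530086O07Rik* (0.911) and *Sema6a* (0.904). *Igf1* was nearest to *Srpx2*, *Cd248* and *Plat* (0.985 to 0.983), *Igf2* to *Adamts9*, *Gimap6* and *Cd36* (0.938 to 0.924) and *Igf2r* to *Akt2*, *Syne1* and *Acadsb* (0.880 to 0.866). Of the binding proteins, *Igfbp2* was nearest to *Adamtsl3* (0.936), *Igfbp3* to *Cadm3* (0.979), *Igfbp4* to *Ogn* (0.991), *Igfbp6* to *Lum* (0.991) and *Igfbp7* to *Col4a2* (0.991).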

How the data were processed

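RNA from sorted cells was made into libraries with the SMARTer stranded total RNA-seq pico input kit, depleted of ribosomal cDNA and sequenced in paired-end mode. Per the labels, RNA integrity ranged widely between samples, and no value per library is given. The authors deposited raw counts per gene, made with STAR 2.5.2a on GRCm38.p5 (submitters' processing notes) and GENCODE annotation whose release, like the strand setting, is not given in the sources used here. Gene IDs were matched to GENCODE M21 (50376 of 50600).

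Counts were fitted with edgeR 4.0.16 (R 4.3.3; filterByExpr with a minimum count of 10, TMM, robust quasi-likelihood F-test) over all 28 libraries, the 14 stromal or the 14 luminal ones, with groups as coefficients. Calls are at a Benjamini-Hochberg adjusted p under 0.01 over all genes tested. Standard errors are the fold change over the root of F. RPKM used the union of exons. Correlations used a prior count of 2. Limma-voom (limma 3.58.1) and DESeq2 1.42.0 were alternatives. The scripts were tested on simulated data.

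Members and lists were chosen with earlier results of these data known. All members were named. Pathway genes were named as up to 3 called genes per list with the largest change whose higher group averaged 10 CPM or more, and for each member the 3 genes of highest r. The titles and methods tie the 4 libraries of a mouse together. Over all 28 libraries, deviations from group means correlated by 0.071 on average within a mouse and -0.010 between mice. The values were 0.059 and -0.006 in the stromal fit, and 0.194 and -0.02 in the luminal fit, where the likeness within a mouse was largest. Replicate numbers across treatments are different mice (-0.006 over all libraries). P-values measure the spread between libraries within a group, each from a different mouse. The main fits treated the 4 libraries of a mouse as independent and did not pair them. The mouse as a block was an alternative. Some items are not reported here.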

Additional observations from a re-analysis of the deposited data

Results flagged for a closer look

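Among 40 sets of 4 untreated libraries, 6 held a value far from the other 3. For normally distributed values chance gives about 1 such set in 20. That rate does not hold for sets near 0, such as *Igf1*, *Igfbp6* and *Igfbp2* below, with at most 11, 16 and 3 counts. *Igfbp2* in tdTomato+ luminal cells had 0 counts throughout and could not be judged. The 6 are thus not read as an excess over chance. *Igfbp5* in GFP+ luminal cells of untreated mouse 2 stood at 11810 CPM, against 4869 to 5180 CPM in the other 3. *Igf2* in tdTomato+ luminal cells of untreated mouse 4 stood at 9.07 CPM (234 counts), against 0.506 to 0.619 CPM, in a library with 0.853 CPM of muscle fibre and 7.33 CPM of fibroblast transcripts. *Igf2r* in tdTomato+ stroma of untreated mouse 4 stood at 199 CPM, against 317 to 327 CPM, in the library with the lowest muscle fibre level of its group, 2400 CPM. *Igf1* in tdTomato+ luminal cells of untreated mouse 2 stood at 0.669 CPM (11 counts), against 0.0388 to 0.103 CPM. *Igfbp6* in tdTomato+ luminal cells of untreated mouse 3 stood at 1.16 CPM (16 counts), against 0.00 to 0.155 CPM, in a library with 45.0 CPM of muscle fibre transcripts. *Igfbp2* in GFP+ luminal cells of untreated mouse 2 stood at 0.302 CPM, or 3 counts, with 0 in the other 3. The part of the muscle fibre and fibroblast transcripts in these values was not tested.

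The difference between GFP+ and tdTomato+ cells was not the same in stroma and luminal cells for *Igf1r* (-2.28 on the log2 scale, stroma minus luminal), *Igfbp5* (-2.50) and *Igf2r* (0.55), by the edgeR interaction test. These are 3 of 10 members, beside 33.2% of all 19569 genes, so the count is not particular to the family. With 1 mouse left out in turn, the *Igf2r* call held in 3 of 7 fits, and those of *Igf1r* and *Igfbp5* in 7 of 7.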

How the results depend on the processing

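The count of members called in each comparison was recomputed with DESeq2 size factors, no low-count filter, DESeq2, limma-voom, replicate blocks, only the groups compared, a looser threshold and each mouse left out. With E+P in GFP+ stroma, the count was 1, and became 5 without the low-count filter, 4 by DESeq2, 2 by limma-voom, 2 with the replicate number as a block and 3 both with only the 2 groups compared and at an adjusted p under 0.05. In tdTomato+ stroma it was 0, and became 3 without the filter, 2 by DESeq2 and 1 at the looser threshold. In GFP+ luminal cells it was 1, and became 0 without the filter and with only the 2 groups compared, and in tdTomato+ luminal cells 1 became 0 without the filter. The subset by E+P interaction in stroma went from 0 to 3 without the filter and 1 by DESeq2, and the subset by lineage interaction from 3 to 5 by DESeq2. The cause of these shifts was not tested. *Igfbp6*, 1 of those DESeq2 added to the subset by lineage interaction, entered that fit through stromal reads alone. All genes called moved as well, from 41 to between 16 and 459 with E+P in GFP+ stroma. In tdTomato+ stroma they moved from 22 to between 0 and 840, and for the subset by E+P interaction in stroma from 8 to between 1 and 506. The member counts are therefore not particular to the family. Leaving out 1 mouse gave 0 to 1 in either luminal comparison with E+P, 2 to 4 for the luminal subset comparison and for subset by lineage, 6 to 7 for the stromal subset comparison, and the same counts as with all mice elsewhere.

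With the mouse as a block, which pairs the libraries of an animal, no count of members moved by more than 1.5 times. Replicate numbers across treatments mark different mice, and the number as a block is given for completeness. The mean RPKM of each member in each group was also recomputed with the longest transcript as length, and with library size in place of TMM. It moved by more than its SD in 30 of these cases and stayed within it in 130.

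Log2 fold changes that turned sign were all uncalled. *Igfbp3* between luminal subsets (-0.05) was 0.61 by limma-voom and 0.37 with the mouse as a block, *Igf2* with E+P in GFP+ stroma (0.09) was -0.07 with the number as a block, *Igf2* for subset by E+P in luminal cells (0.03) was -0.50 with the mouse as a block, and *Igfbp2* for subset by lineage (-2.15) was 0.13 by limma-voom. With 1 mouse left out in turn, the values that changed sign ranged as follows. Between stromal subsets, *Igfbp5* ran from -0.25 to 0.04. Between luminal subsets, *Igfbp3* ran from -1.22 to 2.47 and *Igfbp4* ran from -0.23 to 1.23. With E+P in GFP+ stroma, *Igf2* ran from -0.19 to 0.35. With E+P in tdTomato+ stroma, *Igfbp2* ran from -2.26 to 0.05 and *Igfbp7* ran from -0.12 to 0.07. With E+P in tdTomato+ luminal cells, *Igf2* ran from -4.81 to 0.79 and *Igfbp4* ran from -2.78 to 0.27. For subset by E+P in luminal cells, *Igf2* ran from -1.36 to 0.38, *Igf2r* ran from -0.14 to 0.03, *Igfbp3* ran from -3.13 to 4.21, *Igfbp4* ran from -1.95 to 1.31, *Igfbp5* ran from -0.45 to 0.38 and *Igfbp7* ran from -0.86 to 0.19. For subset by lineage, *Igf1* ran from -0.06 to 0.92 and *Igfbp3* ran from -0.82 to 2.41. Depth limits the luminal levels of low members, where 3 counts are 0.116 to 0.302 CPM.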
